A study of Mus musculus with 198 samples.

Results

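Gonadal and subscapular fat were compared within the same animals in 24 libraries, 1 of each depot from each of 12 control mice, out of 198 libraries of 22 mice in the whole series. The members were all control libraries of these 2 tissues, joined by the mouse identifier in the labels. The mice were C57BL/6, 6 females and 6 males, and had been given a control antibody for 17 weeks in a study of an antibody against PAPP-A, a protease that releases insulin-like growth factors from their binding proteins. The control antibody is a treatment that all 12 mice carried, and the labels used here give neither its target nor the age of the animals. RNA was extracted from whole tissue and read as stranded total-RNA libraries. The same 2 depots of 10 mice given the anti-PAPP-A antibody for 17 weeks, 5 females and 5 males of the same strain, served as a repeat of the depot comparison in other animals.

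Gonadal fat is a visceral depot inside the abdominal cavity. It is covered by mesothelium, a thin epithelial sheet that lines the cavity and lubricates its surfaces. Subscapular fat is a subcutaneous depot under the skin near the shoulder blades, a region in mice that also holds brown fat and skeletal muscle. White adipocytes store triglyceride, whereas brown and beige adipocytes burn fuel in mitochondria through the uncoupling protein UCP1. Depots also keep transcription factors of the body region in which they developed, and the fat of males and females differs in its immune cells, growth and metabolism.

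Levels are given as CPM, a gene's count over a scaled library size. That size is the total of the genes kept by a low-count filter, multiplied by edgeR's TMM normalisation factor. The factor was 1.03 to 1.15 in control gonadal libraries. In subscapular ones it was 0.644 to 0.789 in males 45, 55, 61 and 68 and 0.914 to 1.12 in the others. A low factor raises every CPM of its library, so that a CPM is not a share of the usable count. Usable counts leave out 11 very abundant or ribosomal RNA-type features that took 61.4% to 94.8% of a control library. The usable depth was 576318 to 2245367 counts in gonadal fat and 555470 to 2478831 in subscapular fat, and it did not differ between the depots of a mouse beyond the spread of the pairs (exact two-sided sign-flip permutation test, p = 0.319). Summed adipocyte markers, among them Adipoq (adiponectin) and Plin1 (perilipin), reached 16320 to 36700 CPM in every gonadal library and 16820 to 34390 CPM in 11 of 12 subscapular ones. The markers of testis germ cells did not exceed 1.523 CPM and those of epididymis 5.079 CPM in any library.

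The subscapular libraries were the less uniform of the 2 groups, and several stood apart. The 18 skeletal muscle markers summed to 15870 to 450200 CPM in the subscapular fat of mice 18, 20, 22, 45, 61 and 71, against 98.96 to 638.6 CPM in the other 6 and 74.82 to 297.3 CPM in gonadal fat. The 20 brown and thermogenic markers summed to 2110 to 24330 CPM in the subscapular fat of mice 11, 18, 22, 45, 55, 61 and 68, against 133.8 to 636.1 CPM in the other 5 and 92.34 to 217.9 CPM in gonadal fat. The subscapular library of female 20 held 2029 CPM of B cell markers, where the other subscapular libraries held 2.619 to 32.03 CPM. It also held 417.4 CPM of lymphatic endothelial markers and only 6394 CPM of adipocyte markers. Mammary epithelial markers reached 228.5 to 605.4 CPM in the subscapular fat of 5 females, but 12.43 CPM in female 20 and 3.085 to 18.6 CPM in males. In whole tissue, a larger share of cells of a type and more RNA per cell cannot be told apart, which applies to every result below. The main comparisons were therefore also made without mouse 20 (11 pairs), without the 6 pairs high in muscle markers (6 pairs left), without the 7 pairs high in thermogenic markers (5 left) and without either kind (3 left, mice 3, 4 and 37).

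**Figure D1:**
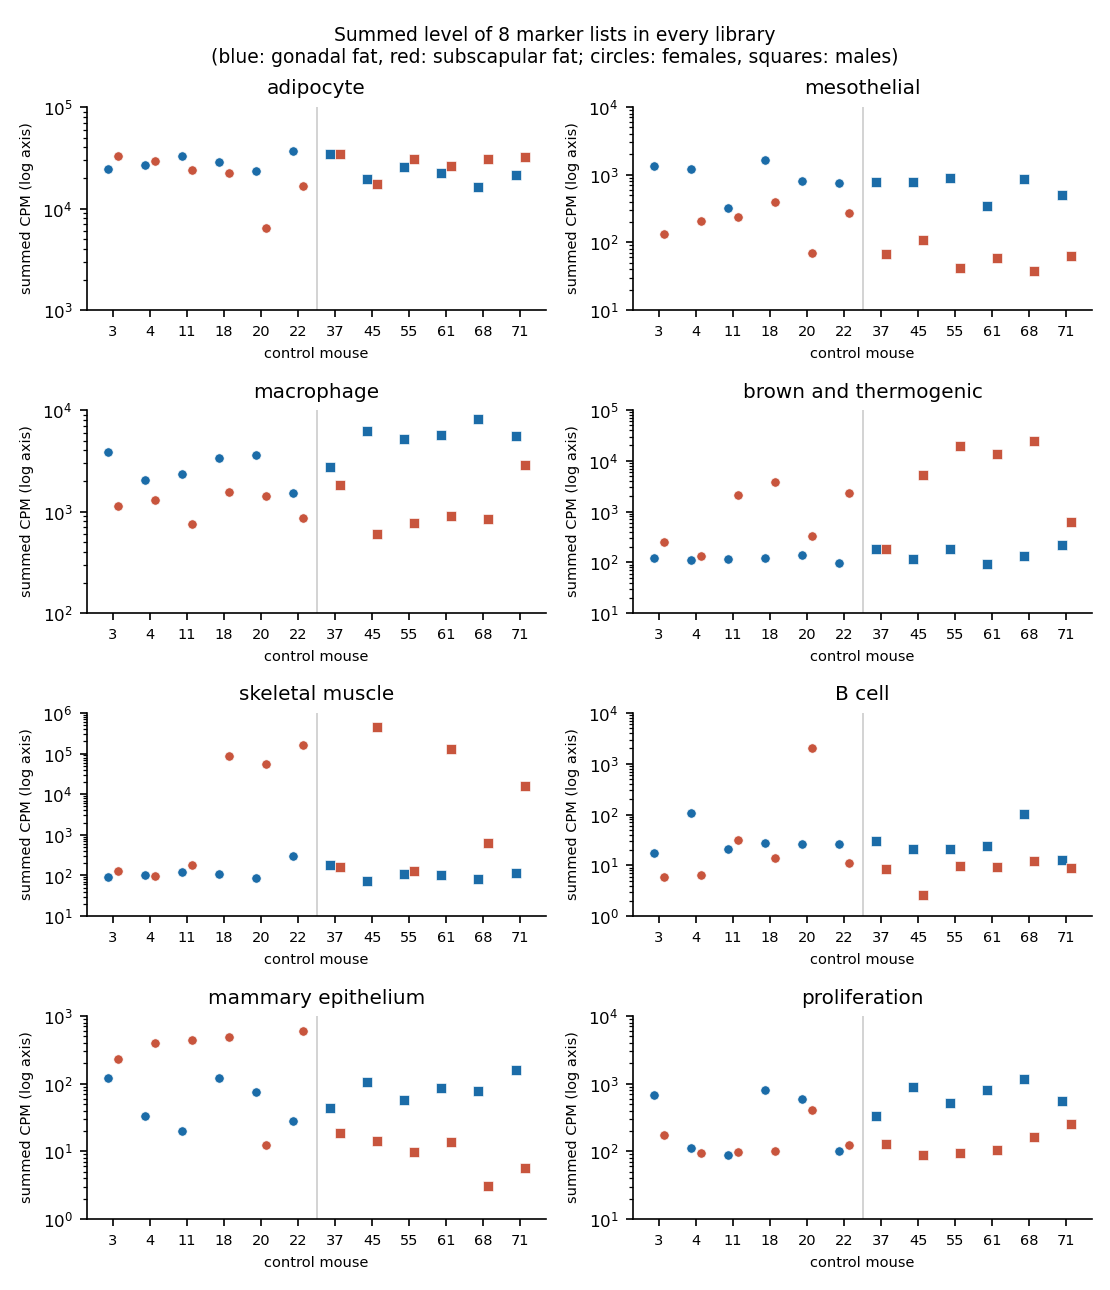
Summed level of 8 marker lists (CPM, logarithmic axis) in the gonadal (blue) and subscapular (red) library of each control mouse, with females as circles on the left and males as squares on the right. Mesothelial and macrophage sums were higher in the gonadal library of every mouse, while muscle, thermogenic, B cell and mammary sums singled out particular subscapular libraries.

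After a filter on low counts, 11516 genes were tested with edgeR's quasi-likelihood test with the mouse as a block. A log2 difference is gonadal minus subscapular, so that positive values mean higher in gonadal fat, and a gene was called at a Benjamini-Hochberg adjusted p under 0.05 over all genes tested. In gonadal fat 1537 genes (13.3%) were higher and in subscapular fat 1534 (13.3%). These shares over all genes are the ones to set beside each count of called list members in 12 pairs below. With a log2 difference of at least 1 in size the counts were 646 (5.61%) and 496 (4.31%). Without mouse 20 the calls numbered 1749 and 1712, and of the 3061 genes called in 12 pairs that could be tested there, all kept their direction and 2850 their call. Without mouse 61, a pair high in muscle and thermogenic markers, 1159 and 978 genes were called. The level in all 12 gonadal libraries exceeded that in all 12 subscapular libraries for 36 tested genes (0.313%), and the reverse held for 8 (0.0695%). The 36 included the mesothelial genes Upk3b, Upk1b, Wt1, Lrrn4 and Rspo1, the complement gene C3, and Alox5 and Ptgs1, enzymes of leukotriene and prostaglandin synthesis. The 8 were Prkaa2, Zfhx4, Lace1, Fastkd1, Klhl24, Ubr3, Fyco1 and Ash1l, with log2 differences from -2.65 for Zfhx4 to -0.36 for Ash1l. Within a depot, the standard deviation of a gene over 12 mice had a median of 0.344 in gonadal and 0.505 in subscapular fat on the log2 CPM scale.

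Genes of the mesothelium marked gonadal fat most sharply. Of 15 listed markers, 11 passed the low-count filter, 8 were called higher in gonadal fat, none was called higher in subscapular fat, and the median log2 difference was 3.93, against -0.02 over all genes, of which 13.3% were called in this direction. Upk3b (chromosome 5, 136038496 to 136046487, mm10), which encodes a uroplakin membrane protein of mesothelium and urothelium, was at 33.9, 118 and 313 CPM (lowest, median and highest) in gonadal fat. In subscapular fat it was at 0, 0 and 1.66 CPM, and the groups did not overlap. Its log2 difference was 7.85 ± 0.33 (SE, 12 pairs; adjusted p = 2.76e-09). Its partner Upk1b gave 817 counts over the 12 gonadal libraries and 2 over the 12 subscapular ones. Wt1 (chromosome 2, 105126529 to 105173616), a transcription factor of mesothelium and of visceral fat progenitors, was at 26.4, 46.0 and 105 CPM in gonadal fat. In subscapular fat it was at 0, 2.39 and 8.01 CPM, a log2 difference of 4.25 ± 0.34 (adjusted p = 4.44e-06). Without mouse 20 the Wt1 difference was 4.48, and in the 3 pairs low in muscle and thermogenic markers it was 5.03 (adjusted p = 0.00073).

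Other mesothelial markers behaved alike in size. Lrrn4, a leucine-rich repeat protein, was at 15.1, 50.4 and 96.8 CPM in gonadal and 0, 1.56 and 9.11 CPM in subscapular fat (log2 difference 4.39 ± 0.32, adjusted p = 2.3e-06). Muc16, a large cell-surface mucin, was at 33.9, 174 and 400 CPM against 0, 1.5 and 74.4 CPM (5.36 ± 0.63, adjusted p = 0.000127). The highest subscapular value of Muc16 lay inside the gonadal range. Rspo1, a secreted enhancer of Wnt signalling, was at 8.48, 20.6 and 50.4 CPM against 0, 0.613 and 5.80 CPM (3.93 ± 0.44, adjusted p = 8.78e-05). Mesothelin itself, Msln, did not pass the low-count filter, with 7.14, 67.5 and 188 CPM in gonadal fat and 0, 0.482 and 2.48 CPM in subscapular fat. Bnc1, a zinc-finger factor, and Nkain4 were also untested. Their lowest gonadal values, 3.77 and 3.95 CPM, stood above their highest subscapular ones, 3.25 and 1.04 CPM. Krt19 (1.70, adjusted p = 0.177), Krt7 (0.90, adjusted p = 0.217) and Cpe (-0.46, adjusted p = 0.394) were not called. In the subscapular fat of females, where the mammary markers were high, the summed mesothelial list was at 70.43 to 390.3 CPM, against 37.79 to 110 CPM in that of males, and Krt19 differed between depots by -0.42 in females and 5.39 in males. The part of mammary epithelium in these keratin values was not tested.

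**Figure D2:**
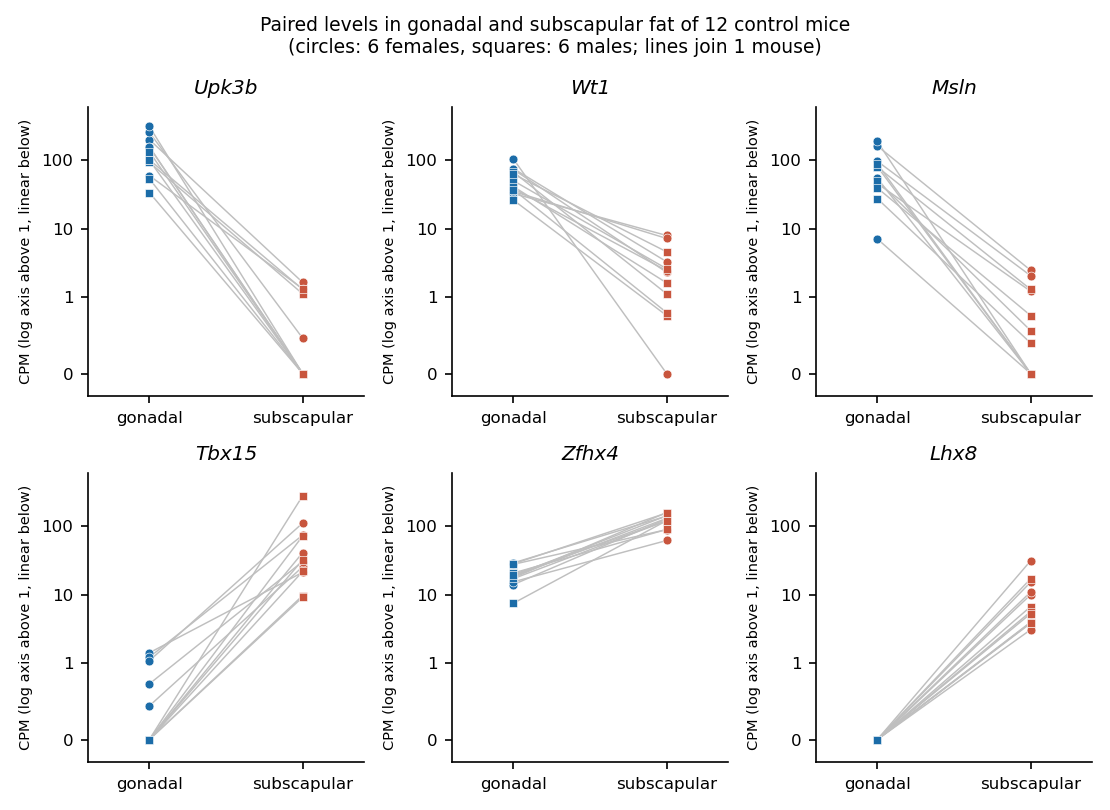
Levels of 6 genes (CPM, logarithmic above 1 and linear below) in the gonadal and subscapular library of each of the 12 control mice, joined by a line per mouse. Upk3b, Wt1 and Msln were higher in every gonadal library and Tbx15, Zfhx4 and Lhx8 in every subscapular library, with no overlap between depots.

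Further genes with large differences included surface proteins and enzymes. Pkhd1l1, Lrp2 and Ptgis were among those named by size, from called genes with the same sign in 12 of 12 pairs. Aldh1a2 was named as a member of the retinoid list. A choice by the same sign in every pair favours genes whose depots do not overlap. Pkhd1l1, a large membrane receptor-like protein, was at 61.4, 244 and 451 CPM in gonadal and 0.762, 1.83 and 12.4 CPM in subscapular fat (6.18 ± 0.38, adjusted p = 3.32e-07). Lrp2 (megalin), an endocytic receptor that takes up retinol and vitamin D carriers, was at 24.3, 90.0 and 193 CPM against 0.400, 3.25 and 6.86 CPM (4.78 ± 0.41, adjusted p = 8.07e-06). Ptgis, prostacyclin synthase, was at 32.9, 60.5 and 104 CPM against 0, 2.66 and 7.37 CPM (4.48 ± 0.36, adjusted p = 4.49e-06). Aldh1a2, which makes retinoic acid, was at 11.4, 27.0 and 63.1 CPM against 0, 3.29 and 8.01 CPM (3.07 ± 0.35, adjusted p = 0.000102). The depots did not overlap for any of these 4 genes.

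Some transcription factors had higher levels in subscapular fat, but most of 17 listed subcutaneous patterning factors were too low for the filter. Of the 5 that could be tested none was called higher in subscapular fat. With no low-count filter 5 of 17 were called in subscapular and 1 in gonadal fat (median -1.81), where 1356 and 1569 of 35141 genes were. Each sex alone called 1 in subscapular fat, of 6 tested in females and 7 in males. The 4 factors described first were partly chosen after their values were seen, and of them Tbx15 and Shox2 are on that list. Tbx15 (chromosome 3, 99240381 to 99354259), a T-box factor of the dorsal body wall, was at 0 to 1.428 CPM in gonadal fat and at 9.254 to 278.9 CPM in subscapular fat. It did not pass the low-count filter, and its highest subscapular values were those of male 45 and female 22, both high in muscle and thermogenic markers. Zfhx4 (chromosome 3, 5218526 to 5415857), a zinc-finger homeobox factor, was at 7.54, 18.8 and 29.2 CPM in gonadal fat and 62.1, 125 and 159 CPM in subscapular fat. Its log2 difference was -2.65 ± 0.17 (adjusted p = 4.18e-07), and every subscapular value lay above every gonadal one. Reduced sets of pairs gave similar differences, at -2.70 without mouse 20, -2.67 without the muscle-high pairs, -2.47 without the thermogenic-high pairs (adjusted p = 0.0063) and -2.54 in the last 3 pairs (adjusted p = 0.0057). Lhx8, a LIM homeobox factor known as a brown fat marker, had 0 counts in all gonadal libraries and 3.107 to 31.47 CPM in subscapular ones. Shox2 was at 0 to 1.74 CPM in gonadal and 0.815 to 12.3 CPM in subscapular fat.

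On the visceral side, Gata6, a factor of abdominal mesoderm, was at 9.42, 26.1 and 36.5 CPM in gonadal fat and 0, 5.11 and 19.7 CPM in subscapular fat (1.80 ± 0.36, adjusted p = 0.00379). Gata5 (0 to 13.5 CPM) and Tcf21 (0 to 8.568 CPM) were found in gonadal libraries only, with 0 counts in all subscapular ones. Of 15 visceral patterning factors 3 could be tested, and all 3 were called higher in gonadal fat, against 13.3% of all genes. Wt1, 1 of the 3, is also on the mesothelial list. A gene can pass the filter through its level in gonadal fat alone, so that this share, like that of the mesothelial list, is partly set by the filter. With no low-count filter 7 of 14 were called in gonadal and 0 in subscapular fat (median 1.96). Of the 5 tested subcutaneous patterning factors (median -0.05) Sfrp2 was called higher in gonadal fat (1.32 ± 0.37, adjusted p = 0.018), whereas En1 (-0.07), Prrx1 (-0.05) and Meox2 (-0.18) were not called.

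Macrophage genes were higher in gonadal fat. Of 15 listed, 13 were tested and 12 called, none in the other direction, with a median log2 difference of 1.73. Mrc1, the mannose receptor of tissue-resident macrophages, was at 304, 745 and 981 CPM in gonadal fat and 89.4, 131 and 439.9 CPM in subscapular fat (1.95 ± 0.28, adjusted p = 0.000506). Adgre1 (F4/80) was at 63.4, 170.1 and 481 CPM against 24.9, 58.1 and 215 CPM (1.62 ± 0.31, adjusted p = 0.00289). Both were higher in the gonadal library of 12 of 12 mice although the groups overlapped. Ccl2, a monocyte chemoattractant, was at 3.28, 24.5 and 97.1 CPM against 0, 2.80 and 80.9 CPM (2.57 ± 0.40, adjusted p = 0.000949). Csf1r, Cd68, Folr2 and Cd163 were called with log2 differences of 1.51 to 2.03, whereas Mpeg1 was not (0.97, adjusted p = 0.128). With the thermogenic-high pairs left out the list median was 1.14 and 2 genes were called, and Mrc1 stood at 1.26 (adjusted p = 0.28).

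The lipid-associated macrophage list varied widely between gonadal libraries. Its summed level was 350.7 to 2220 CPM in males and 197.1 to 353.4 CPM in females, and the lowest male, 37, fell inside the female range. Trem2, the lipid receptor that defines these cells, was called (2.30 ± 0.47, adjusted p = 0.00393), at 10.2, 37.8 and 129 CPM in gonadal and 3.26, 5.21 and 49.6 CPM in subscapular fat. Lgals3 (1.62, adjusted p = 0.00567) and Ctss (1.36, adjusted p = 0.0398) were called as well, but the call of Ctss was lost without mouse 3, 18, 45, 55, 61, 68 or 71 (adjusted p up to 0.088). Gpnmb (0.40), Itgax (0.44) and Cd9 (-0.13) were not called. No depot-by-sex difference passed the test in this list.

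Some genes of antibody-secreting plasma cells were higher in gonadal fat, with 3 of 5 tested members of 9 listed called. These were Ighm, Igkc and Jchain, whereas Sdc1 (0.825) and Xbp1 (0.352) were not called and stood at -0.166 and -0.297 in the last 3 pairs. Females alone called 0 of 5 (median 1.73) and males 4 of 5 (median 2.66). Without the thermogenic-high pairs 0 of 5 were called (median 2.14). Jchain, which joins IgA and IgM chains, was at 38.2, 111 and 365 CPM in gonadal and 1.54, 5.06 and 96.1 CPM in subscapular fat (3.22 ± 0.61, adjusted p = 0.0029). Ighm, the IgM heavy chain, was at 469, 1119 and 2778 CPM against 76.6, 191 and 1229 CPM (2.18 ± 0.41, adjusted p = 0.00283). B cells also express Ighm and Igkc, and the highest subscapular Igkc value, 851 CPM, stood above the gonadal maximum of 819.7 CPM. Without mouse 20, whose subscapular library held the B cell markers, Jchain stood at 3.55 and Ighm at 2.33. None of the B cell or T and NK cell markers was high enough to be tested.

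Complement genes were mostly higher in gonadal fat. Of 15 listed, 14 were tested and 12 called, all in gonadal fat, with a median of 1.36. C3 (chromosome 17, 57203970 to 57228136), the central component, was at 1915, 2172 and 2791 CPM in gonadal fat (lowest, median and highest) and 449.6, 964 and 1525 CPM in subscapular fat (1.33 ± 0.19, adjusted p = 0.000479). Every gonadal library exceeded every subscapular one. C6, a pore component, differed by 3.06 ± 0.39 (adjusted p = 0.000231) and Serping1, the inhibitor of the first complement proteases, by 1.42 ± 0.17 (adjusted p = 0.000153). The C1q chains C1qa (1.94), C1qb (1.83) and C1qc (1.73), which macrophages make, are counted in this list. Cfd, the adipocyte protease adipsin, was not called (-0.03, adjusted p = 0.914). Without the thermogenic-high pairs 2 of 14 complement genes were called (median 1.01). In the last 3 pairs 4 of 14 were called (median 1.1), and C3 stood at 1.95 (adjusted p = 0.0062).

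Genes of the extracellular matrix were mostly higher in gonadal fat, but the main fibrillar collagen genes Col1a1, Col1a2 and Col3a1 were not called. Of 26 matrix glycoproteins and proteoglycans 25 were tested, and 17 were called higher in gonadal fat and none in subscapular fat (median 1.1). Fbn1, the fibrillin of elastic microfibrils, was at 499.5, 1232 and 2135 CPM in gonadal and 125, 296 and 895 CPM in subscapular fat (2.08 ± 0.32, adjusted p = 0.000892). Fn1, fibronectin, was at 453, 1404 and 2795 CPM against 91.0, 230.3 and 755 CPM (2.32 ± 0.39, adjusted p = 0.00152). Vcan, the large proteoglycan versican, was at 30.1, 158 and 297 CPM against 11.4, 18.6 and 72.1 CPM (2.51 ± 0.29, adjusted p = 0.000116). Dcn, the small proteoglycan decorin, was at 799.98, 1339 and 2064 CPM against 307, 418 and 1221 CPM (1.36 ± 0.20, adjusted p = 0.000597). These 4 genes were higher in the gonadal library of 11 or 12 of 12 mice, and their ranges overlapped.

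Of 18 collagens, all tested, 5 were called, all in gonadal fat, where 13.3% of all genes were. They were Col6a1 (1.37 ± 0.23, adjusted p = 0.0013) and Col6a2 (1.22, adjusted p = 0.0027) of the beaded-filament collagen VI, the fibril-associated Col14a1 (1.58 ± 0.27, adjusted p = 0.0017), and Col5a1 and Col5a2 (both 1.06). Without mouse 61 Col5a2 stood at 0.97 (adjusted p = 0.052), and without mouse 37 or 71 the calls in this list numbered 8 and 9. DESeq2 and limma-voom called 10 each, all in gonadal fat, so that the number of collagens called depended on the tool. The main fibrillar genes Col1a1 (0.79, adjusted p = 0.183), Col1a2 (0.94, adjusted p = 0.0613) and Col3a1 (1.10, adjusted p = 0.0594) were not called, although Col3a1 passed without mouse 22, 37 or 71 (at 1.25, 1.29 and 1.27), and Col6a3 was at 0.07 (adjusted p = 0.863). Of 20 remodelling genes 19 were tested and 12 called higher in gonadal fat, among them the crosslinking oxidase Loxl2 (1.6 ± 0.29, adjusted p = 0.00205) and the procollagen protease Bmp1 (1.36 ± 0.23, adjusted p = 0.00136). The exception was Mmp3, stromelysin, at 1.74, 9.97 and 34.5 CPM in gonadal and 9.32, 28.0 and 111 CPM in subscapular fat (-1.63 ± 0.39, adjusted p = 0.00886). With the thermogenic-high pairs left out no matrix glycoprotein was called and the median was 0.87. In the last 3 pairs Fbn1 (2.08, adjusted p = 0.0083) and Dcn (1.34, adjusted p = 0.031) were called, and the collagen median was -0.03.

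The list of progenitor and fibroblast genes divided. Of 20 listed, 18 were tested, 7 were called higher in gonadal and 1 in subscapular fat, with a median of 0.42. Without the thermogenic-high pairs none was called (median 0.39). In the last 3 pairs 2 were called in gonadal fat (median 0.338). Dpp4, a peptidase on early interstitial progenitors, differed by 1.63 ± 0.33 (adjusted p = 0.00371) and by 2.46 in the last 3 pairs (adjusted p = 0.0026). Cd34, a progenitor glycoprotein, differed by 1.07 ± 0.17 (adjusted p = 0.00113). F3, tissue factor, which marks an adipogenesis-regulating population, was higher in subscapular fat (-0.54 ± 0.12, adjusted p = 0.00628). The general stromal receptors Pdgfra (0.27, adjusted p = 0.367) and Pdgfrb (0.06, adjusted p = 0.803) were not called.

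Several genes of the Wnt and BMP signalling list were higher in gonadal fat. Of 21 Wnt and BMP genes 10 were tested, and 6 were called, all in gonadal fat (median 1.16). Without the thermogenic-high pairs none was called (median 0.62), in males alone 2 were called in gonadal and 1 in subscapular fat, and in treated mice 1 of 7 was called. Besides Rspo1 the 6 included the secreted frizzled-related inhibitors Sfrp1 (1.94 ± 0.41, adjusted p = 0.00496), Sfrp4 (2.10 ± 0.41, adjusted p = 0.00315) and Sfrp5 (1.61 ± 0.32, adjusted p = 0.00361). Sfrp5 was at 7.04, 116 and 162 CPM in gonadal and 2.67, 23.7 and 191 CPM in subscapular fat, higher in gonadal fat in 11 of 12 mice.

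Cell-cycle genes were higher in gonadal fat in most mice but not in all. Of 16 proliferation genes 8 were tested and 7 called, all in gonadal fat. Without the muscle-high pairs 0 of 7 tested were called (median 0.929), and without the thermogenic-high pairs 1 of 9 (median 0.526). Females alone called 0 of 7 and males 12 of 12. Mki67, the proliferation antigen, was at 4.28, 178 and 375 CPM in gonadal and 4.02, 17.0 and 111 CPM in subscapular fat (2.43 ± 0.57, adjusted p = 0.00781), higher in 10 of 12 mice. Top2a, the DNA topoisomerase, differed by 2.42 ± 0.48 (adjusted p = 0.00346) and the cyclin Ccna2 by 2.41 ± 0.31 (adjusted p = 0.000244). The summed list was 87.11 to 112.5 CPM in the gonadal fat of females 4, 11 and 22 and 335.1 to 1193 CPM in the other 9. These 3 gonadal libraries lay within the subscapular range of 87.72 to 415.3 CPM. The median log2 difference of the list was 0.425 over 7 members tested in females and 2.74 over 12 tested in males, so that the medians cover different genes. No depot-by-sex difference in the list passed the test.

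**Figure D3:**
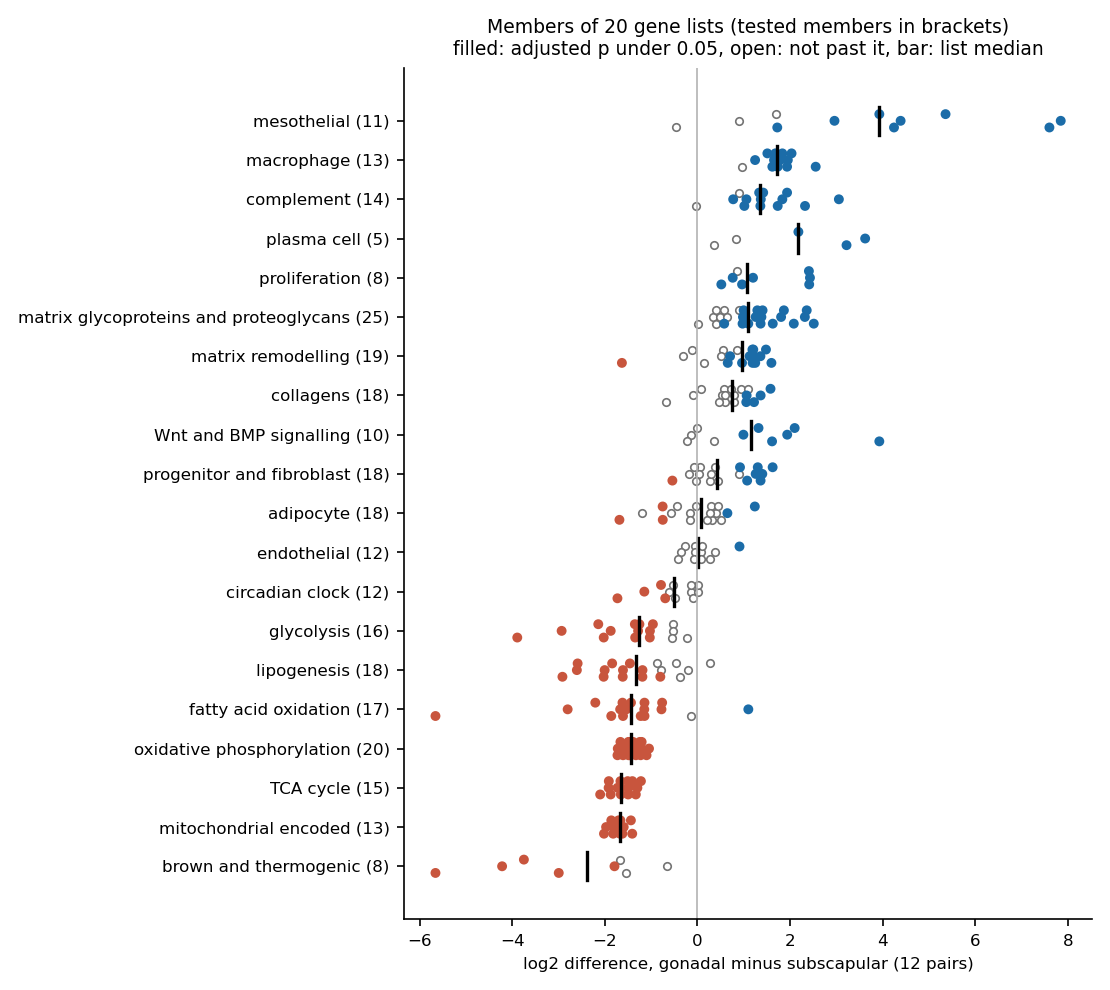
Log2 difference, gonadal minus subscapular, of every tested member of 20 gene lists in 12 pairs of control libraries. Filled points passed an adjusted p of 0.05, open points did not, bars are list medians, and the bracketed number counts tested members. Mesothelial, macrophage, complement and matrix lists lay to the right and mitochondrial, lipogenic and thermogenic lists to the left.

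Thermogenic genes were high in some subscapular libraries and varied widely between mice. Ucp1 (chromosome 8, 83290352 to 83298452) did not exceed 5.924 CPM in gonadal fat. In subscapular fat it was at 40.57, 0, 900.8, 2050, 5.178 and 991 CPM in females 3, 4, 11, 18, 20 and 22. In males 37, 45, 55, 61, 68 and 71 it was at 2.254, 1719, 10840, 7285, 14330 and 175.7 CPM. Thus female 4 had none, and males 55, 61 and 68 had the most. Cidea, a lipid-droplet protein of brown fat, did not exceed 2.087 CPM in gonadal fat and ran from 0.4646 CPM in female 4 to 1576 CPM in male 55. Neither gene was testable in 12 pairs, since the filter removes genes high in only some libraries. Of 20 listed thermogenic genes 8 were tested and 5 called, all higher in subscapular fat.

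Ppargc1a (chromosome 5, 51454250 to 51567726), the coactivator that drives mitochondrial biogenesis, was at 0.594, 2.501 and 7.90 CPM in gonadal and 7.45, 29.5 and 154 CPM in subscapular fat (-3.75 ± 0.56, adjusted p = 0.000716). It was lower in the gonadal library of 12 of 12 mice. Cpt1b, the muscle and brown fat form of the enzyme that admits fatty acids to mitochondria, was at 0, 4.36 and 13.9 CPM against 0.929, 186 and 1334 CPM (-5.66 ± 0.87, adjusted p = 0.000901). Prdm16, a regulator of the beige programme, differed by -1.79 ± 0.40 (adjusted p = 0.00681). Both are on the thermogenic list whose sum chose the pairs to leave out, so that a smaller difference in the rest is built into that choice. In the 3 pairs low in both marker lists Ppargc1a stood at -1.67 (adjusted p = 0.18) and Cpt1b at -0.27 (adjusted p = 0.93).

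Skeletal muscle genes were high in 6 subscapular libraries and low elsewhere. Acta1, skeletal actin, was at 7.719 to 41.54 CPM in gonadal fat. In subscapular fat it reached 3573, 2596 and 8760 CPM in females 18, 20 and 22 and 19680, 6141 and 847.9 CPM in males 45, 61 and 71, and it stayed at 0.8147 to 20.82 CPM in the other 6. Its log2 difference was -3.69 ± 1.85 (adjusted p = 0.152), and Neb, the thin-filament protein nebulin (-4.47, adjusted p = 0.0658), was not called either, although it passed without mouse 3, 4, 37 or 55 (adjusted p 0.0409 to 0.0482). Among the genes with the largest subscapular excess, muscle genes that passed the test were Myl1 (-3.26 ± 0.76, adjusted p = 0.00763), Cmya5 (-3.62 ± 0.98, adjusted p = 0.0156) and Myom1 (-3.61 ± 0.93, adjusted p = 0.0125). Without the 6 muscle-high pairs 5 of the 12 named genes with the largest subscapular excess were called, and without the thermogenic-high pairs 1 (Zfhx4). All 12 kept their direction, which was built in, since they were chosen for the same sign in 12 of 12 pairs. Of the 12 named genes with the largest gonadal excess, 11 of 11 tested and 9 of 12 were called in these 2 settings.

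Genes of oxidative metabolism were higher in subscapular fat as whole groups. All 20 nuclear oxidative phosphorylation genes were called (median -1.44), as were all 13 mitochondrially encoded subunits (median -1.67) and all 15 genes of the TCA cycle and pyruvate dehydrogenase (median -1.65). Ndufs1, a complex I subunit, was at 89.5, 104 and 145 CPM in gonadal and 132, 285 and 1234 CPM in subscapular fat (-1.59 ± 0.35, adjusted p = 0.00635). Sdhb, a subunit of succinate dehydrogenase, was at 58.2, 75.3 and 117 CPM against 97.7, 206 and 1074 CPM (-1.66 ± 0.38, adjusted p = 0.00696). Pdha1, of pyruvate dehydrogenase, was at 163, 189 and 414 CPM against 258, 701 and 2503 CPM (-1.65 ± 0.36, adjusted p = 0.0055). These 3 genes were lower in gonadal fat in 12 of 12 mice. The mitochondrially encoded complex I subunit mt-Nd1 was at 846, 1296 and 2071 CPM against 1435, 4547 and 17291 CPM (-1.80 ± 0.44, adjusted p = 0.00963).

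Of 17 fatty acid oxidation genes 15 were called higher in subscapular fat and 1 in gonadal fat (median -1.43). Acadvl, the very long chain acyl-CoA dehydrogenase, was at 61.96, 100.7 and 149 CPM in gonadal and 123, 461 and 3321 CPM in subscapular fat (-2.21 ± 0.49, adjusted p = 0.00627). The exception was Cpt1a, the liver form of carnitine palmitoyltransferase, at 82.0, 189 and 250.4 CPM in gonadal and 40.0, 79.7 and 146 CPM in subscapular fat. It was higher in the gonadal library of 12 of 12 mice (1.10 ± 0.17, adjusted p = 0.000748). Cpt1a and Cpt1b, forms of the same enzyme, therefore differed between depots in opposite directions.

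The oxidative difference was smaller in the pairs low in thermogenic markers, a set picked after the data were seen. Without the 7 thermogenic-high pairs, the median was -0.34 for oxidative phosphorylation, -0.52 for mitochondrially encoded genes, -0.39 for the TCA cycle and -0.13 for fatty acid oxidation. No oxidative phosphorylation gene was called. Cpt1b is on both the thermogenic and the fatty acid oxidation list, and mice 18, 22, 45 and 61 were also muscle-high. The cause of the smaller difference was not tested. In the last 3 pairs the oxidative phosphorylation median was -0.18, and Ndufs1 stood at -0.40 (adjusted p = 0.3) and Acadvl at -0.47 (adjusted p = 0.26). Without the muscle-high pairs, of which mice 20 and 71 were low in thermogenic markers, the oxidative phosphorylation median was -1.32, again with no gene called. The fewer pairs also lower the power of the test, so that the counts are not comparable between these sets. The medians are comparable for oxidative phosphorylation, mitochondrially encoded and TCA cycle genes, all of which were tested in each set. In lists whose tested members changed with the set, such as the mesothelial one, the medians cover different genes. By sex, the oxidative phosphorylation median was -0.68 in females and -2.26 in males, although no member of the list passed the depot-by-sex test, and the subscapular thermogenic sum had a median of 1223 CPM in females and 9378 CPM in males.

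**Figure D4:**
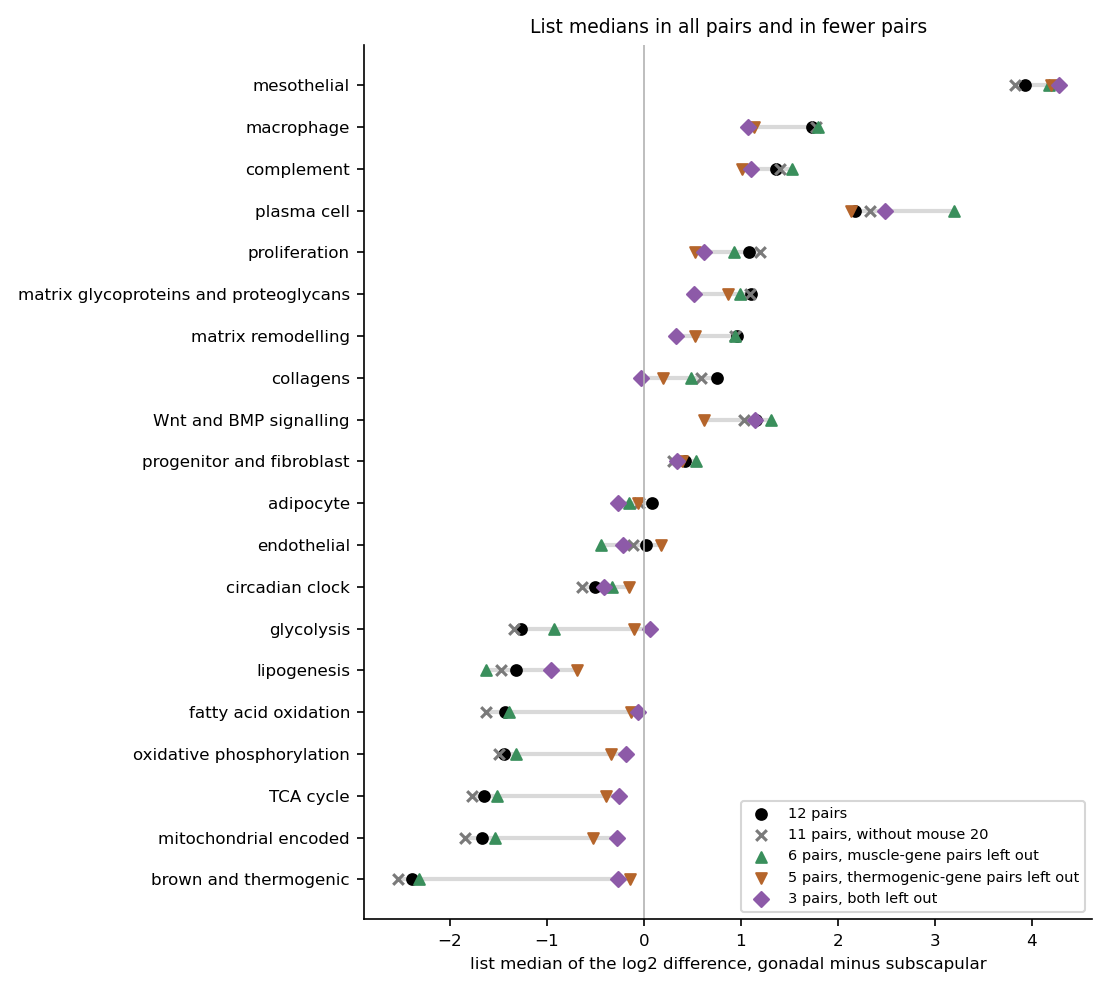
Median log2 difference, gonadal minus subscapular, of 20 gene lists in all 12 pairs (black circles), without mouse 20 (grey crosses), without muscle-high pairs (green), without thermogenic-high pairs (orange) and without either kind (purple diamonds, 3 pairs). The mesothelial median lay between 3.83 and 4.28 in all 5 sets. Its tested members numbered 11, 11, 14, 14 and 15 in that order, so that these medians cover different genes. The median of oxidative phosphorylation, over the same 20 genes, ran from -1.49 to -0.18.

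Because the oxidative genes differed as groups, their promoters were read for shared short sequences. RefSeq promoters (assembly GRCm38.p6, 250 bases before the start to 50 after it) were found for 38 of 50 members of the oxidative phosphorylation, TCA cycle and fatty acid oxidation lists and 9 motifs were searched on both strands of the upstream 250 bases. GCATGCGC, the core of the site of NRF1, a factor known for respiratory chain genes, was found in 5 of 38 (13.2%), against 2.32% of 27025 promoters. ATTGGC, which contains the reverse complement of CCAAT, was found in 12 (31.6%) against 14%, while CCAAT was found in 13 (34.2%) against 34.5%. The nuclear receptor element AGGTCA was found in 7 (18.4%) against 13.8%, AAGGTCA, which contains it, in 1 (2.63%) against 4.05%, and TCAAGGTCA and TGACCTTTG in none, against 0.366% and 0.407%. GGGTGGG was found in 4 (10.5%) against 15.5% and GCGGGGGCG in none against 2.56%. These are matches of letters and not measured binding. The sequences around the first motif are shown for 3 of the 5 genes, with the motif in capitals, 5′ to 3′ on the strand of the gene, at chr3:153944768-153944827 (minus strand) for Acadm, chr6:50566596-50566655 (minus) for Cycs and chr4:140961191-140961250 (plus) for Sdhb.
Acadm: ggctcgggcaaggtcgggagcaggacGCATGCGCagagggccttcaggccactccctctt
Cycs: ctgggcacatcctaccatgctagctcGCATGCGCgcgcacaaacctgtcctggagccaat
Sdhb: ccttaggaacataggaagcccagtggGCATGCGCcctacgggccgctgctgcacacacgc

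Fatty acid synthesis was also higher in subscapular fat. Of 18 lipogenic genes, all tested, 12 were called, all in subscapular fat, with a median of -1.32. Fasn (chromosome 11, 120805846 to 120824547), fatty acid synthase, was at 555, 1122 and 13820 CPM in gonadal and 1882, 8033 and 46211 CPM in subscapular fat (-2.59 ± 0.53, adjusted p = 0.00397), lower in gonadal fat in 11 of 12 mice. Acacb, the acetyl-CoA carboxylase at mitochondria, was at 39.8, 67.8 and 168.5 CPM against 93.7, 559 and 1963 CPM (-2.60 ± 0.49, adjusted p = 0.00279). Elovl6, an elongase, was at 11.3, 38.5 and 341 CPM against 38.4, 378 and 2845 CPM (-2.92 ± 0.63, adjusted p = 0.0053). Me1, which supplies NADPH, differed by -1.46 ± 0.23 (adjusted p = 0.000944) and Mlxipl, the glucose-sensing factor ChREBP, by -1.61 (adjusted p = 0.00401). Scd1 (-0.78, adjusted p = 0.143) and Dgat2 (-0.21, adjusted p = 0.595) were not called. Without the thermogenic-high pairs the lipogenic median was -0.69 and no gene was called. In the last 3 pairs it was -0.95 with 1 gene called, and Fasn stood at -2.22 (adjusted p = 0.16).

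Glycolytic genes were mostly higher in subscapular fat. Of 16 glycolytic genes 12 were called higher in subscapular fat, with a median of -1.27. Hk2, the insulin-regulated hexokinase, was at 45.2, 61.3 and 219.9 CPM in gonadal and 110.5, 340.8 and 1013 CPM in subscapular fat (-2.02 ± 0.41, adjusted p = 0.00397). Slc2a4, the insulin-responsive glucose transporter GLUT4, was at 34.6, 95.0 and 184 CPM against 120.4, 295 and 605 CPM (-1.68 ± 0.32, adjusted p = 0.00267), and lower in gonadal fat in 12 of 12 mice. The glycolytic median fell to -0.10 without the thermogenic-high pairs and was 0.06 in the last 3 pairs. Prkaa2, the catalytic α2 subunit of the energy sensor AMPK, did not overlap between depots, at 9.42, 15.4 and 26.2 CPM in gonadal and 31.5, 72.3 and 638 CPM in subscapular fat (-2.55 ± 0.40, adjusted p = 0.00107). Its difference was -0.89 in the last 3 pairs (adjusted p = 0.16).

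General adipocyte genes hardly separated the depots. Of 18 listed, all tested, 2 were called higher in gonadal and 3 in subscapular fat, with a median of 0.08. Without mouse 20 the calls were 2 and 6 and the median -0.05. Without mouse 45, 55, 61 or 68 they were 1 and 1. Adipoq, adiponectin, was at 840.2, 1788 and 3587 CPM in gonadal and 499, 1439 and 2946 CPM in subscapular fat (0.31 ± 0.24, adjusted p = 0.362). Plin1, perilipin of the lipid droplet, was at 417, 842 and 1121 CPM against 187.5, 963 and 1435 CPM (-0.16, adjusted p = 0.682). Leptin differed: Lep (chromosome 6, 29060220 to 29073877) was at 781, 1642 and 2401 CPM against 63.2, 633 and 2654 CPM (1.24 ± 0.34, adjusted p = 0.0168), higher in gonadal fat in 9 of 12 mice. The Lep difference was 1.04 without mouse 20 (adjusted p = 0.019) and 0.02 in the last 3 pairs.

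Among 14 tested adipokines and secreted factors of 20 listed, 6 were called higher in gonadal and 3 in subscapular fat. Angptl4, an inhibitor of lipoprotein lipase, was at 200.1, 507 and 667 CPM in gonadal and 17.6, 228 and 489.9 CPM in subscapular fat (1.21 ± 0.26, adjusted p = 0.0055), higher in gonadal fat in 12 of 12 mice. Fgf1, a growth factor of fat remodelling, was at 70.7, 171 and 265 CPM against 14.5, 45.7 and 93.0 CPM (1.75 ± 0.32, adjusted p = 0.00214), and stood at 2.42 in the last 3 pairs (adjusted p = 0.013). On the other side Nrg4, a secreted ligand of brown and beige fat, was at 18.3, 27.0 and 81.6 CPM against 20.7, 94.0 and 234 CPM (-1.71 ± 0.25, adjusted p = 0.000692). Endothelial genes did not separate the depots as a group, with 1 of 12 tested called and a median of 0.02, and Pecam1 stood at 0.08 (adjusted p = 0.677).

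The insulin-like growth factor axis, on which PAPP-A acts, differed in its binding proteins. Igfbp4 (chromosome 11, 99041244 to 99054392), the principal PAPP-A substrate, was at 271.8, 438 and 565 CPM in gonadal and 70.2, 178 and 446 CPM in subscapular fat (1.15 ± 0.21, adjusted p = 0.00242), higher in gonadal fat in 12 of 12 mice. Igfbp6, a binding protein with a preference for IGF2, was at 39.6, 114 and 237 CPM against 19.3, 38.7 and 103 CPM (1.58 ± 0.27, adjusted p = 0.00174). In the last 3 pairs Igfbp4 stood at 0.26 (adjusted p = 0.53) and Igfbp6 at 1.97 (adjusted p = 0.0027). Igfbp5, another PAPP-A family substrate, was at 125, 263 and 604 CPM against 137, 332 and 674 CPM and was not called (-0.22 ± 0.22, adjusted p = 0.47). Igf1 (0.61 ± 0.24, adjusted p = 0.0736) and Igf1r (-0.07, adjusted p = 0.746) were not called, but Igf1 passed without mouse 37 (0.71, adjusted p = 0.043). The adaptor Irs1 was higher in subscapular fat (-0.90 ± 0.25, adjusted p = 0.0188). Pappa itself was too low to test, at 5.08, 7.42 and 24.6 CPM in gonadal and 1.63, 3.10 and 10.1 CPM in subscapular fat.

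Steroid and clock genes added single differences. Hsd11b1, which reactivates glucocorticoid inside cells, was at 26.8, 50.2 and 170.1 CPM in gonadal and 65.4, 124 and 266 CPM in subscapular fat. It was lower in gonadal fat in 12 of 12 mice (-1.32 ± 0.16, adjusted p = 0.00019), with -1.16 in the last 3 pairs (adjusted p = 0.075). The receptors Nr3c1 (-0.20) and Esr1 (0.22) were not called. Of 14 clock genes 12 were tested and 4 called, all higher in subscapular fat, where 13.3% of all genes were. Among them was the repressor Nr1d2 (-0.70 ± 0.14, adjusted p = 0.00414) at 61.4, 73.5 and 107 CPM against 71.7, 112 and 238 CPM. The time of tissue collection is not given in the labels used here.

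The depot difference itself differed between the sexes for 5 genes (0.0434%) by the depot-by-sex term, each at an adjusted p of 0.0462. Col6a5, a collagen VI chain (chromosome 9, 105856078 to 105960643), was at 168.7 to 625.9 CPM in the gonadal fat of males and 6.012 to 49.28 CPM in that of females, and did not exceed 12.43 CPM in subscapular fat. Female minus male, its depot difference was -5.31 ± 0.77 on the log2 scale (SE, 6 mice of each sex), and the same term was -5.62 for Col4a6, -3.92 for Aldh1a3, -2.75 for Hmcn1 and -2.5 for Egr1. Col4a6 (chromosome X, 141165403 to 141474076), a basement membrane collagen, showed its contrast in subscapular fat, with 14.9, 38.1, 28.03, 34.2, 2.071 and 49.12 CPM in females 3, 4, 11, 18, 20 and 22 and 0 to 1.542 CPM in males. In gonadal fat it was at 5.712 to 52.49 CPM over both sexes. Aldh1a3, a retinaldehyde dehydrogenase, was at 32.19 to 55.29 CPM in the subscapular fat of 5 females, 5.178 CPM in female 20 and 1.127 to 21.22 CPM in males. Hmcn1, a basement membrane protein, was at 16.57 to 88.53 CPM in the subscapular fat of females and 6.941 to 18.6 CPM in males. Female 20 was the lowest female for Col4a6, Aldh1a3 and Hmcn1, as it was for the mammary markers, and the part of mammary epithelium in these 3 genes was not tested. Egr1, an immediate early transcription factor, was at 15.54 to 33.36 CPM in the subscapular fat of females and 3.047 to 11.57 CPM in that of males. This count of 5 was not stable: leaving out single mice gave 0 to 321 genes, with 0 without mouse 4, 11, 18, 22, 45, 55 or 61, 12 without mouse 20 and 321 without mouse 37.

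Posterior Hox genes, which record position along the body axis, showed a sex pattern too low for the test. Hoxc10 (chromosome 15, 102966796 to 102971893) was at 7.14 to 16.08 CPM in the gonadal fat of all 6 females, and had 0 counts in that of all 6 males and in every subscapular library. Hoxa9 was at 11.26 to 16.34 CPM in the gonadal fat of females and 0 to 1.975 CPM in that of males, and Hoxa10 at 7.04 to 21.42 CPM and 0 to 1.736 CPM. In subscapular fat, male 45 was the highest for both, at 10.47 and 17.02 CPM. Among the more anterior genes Hoxc6 (0.80, adjusted p = 0.0234) and Hoxd4 (0.94 ± 0.24, adjusted p = 0.0108) were called higher in gonadal fat and Hoxa5 was not (-0.02). Without mouse 55 Hoxc6 stood at 0.72 (adjusted p = 0.054). In treated mice 0 of 3 tested cluster C genes and 0 of 2 cluster D genes were called in gonadal fat. There 1 cluster C gene was called in subscapular fat.

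**Figure D5:**
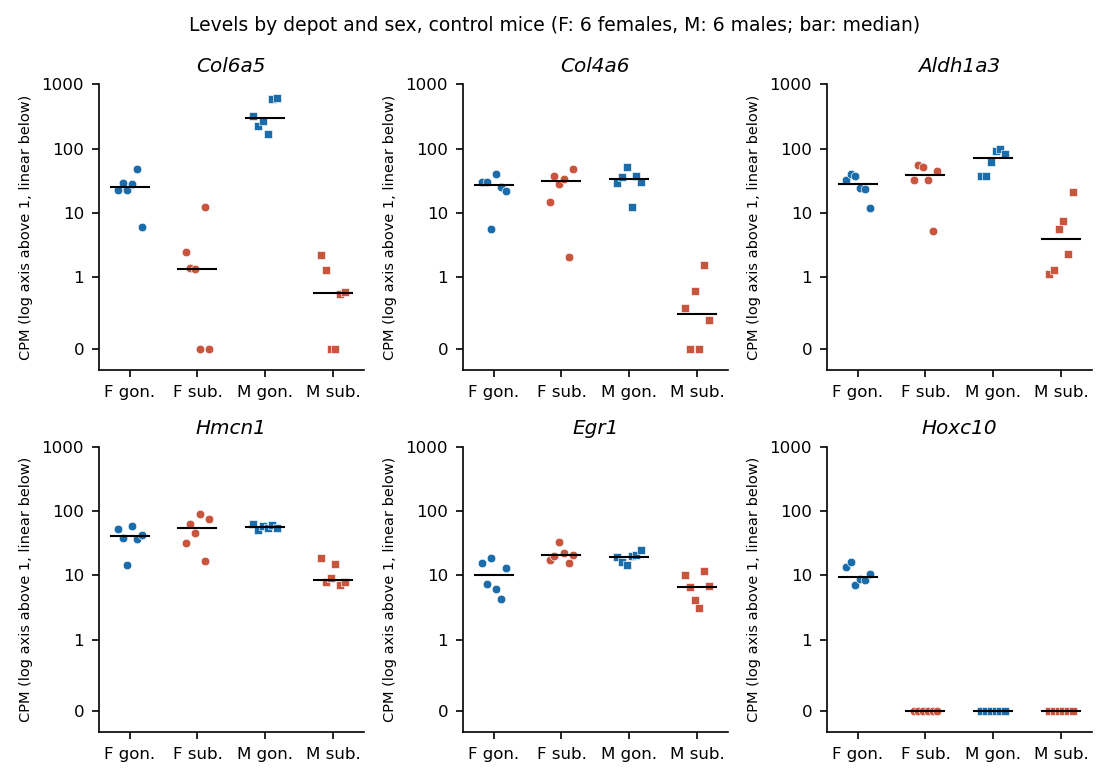
Levels of 6 genes (CPM, logarithmic above 1 and linear below) by depot and sex in control mice, with 6 libraries per group and the median as a bar. Col6a5 was highest in male gonadal fat, Col4a6 lowest in male subscapular fat, and Hoxc10 was found in female gonadal fat alone.

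The depot comparison was repeated in the 10 treated mice, which share no library with the control fit. There 10723 genes were tested, and 1815 (16.9%) were called higher in gonadal and 1786 (16.7%) in subscapular fat. Of the 2921 genes called in control mice and tested in treated mice, 2903 (99.4%) had the same direction, 2205 (75.5%) were called in that direction and 1 in the other. Of those with a control difference of at least 1 in size, 953 of 1048 (90.9%) were called again. Upk3b was at 8.277 to 272.5 CPM in treated gonadal and 0 to 1.291 CPM in treated subscapular fat, and Zfhx4 at 3.679 to 33.01 CPM against 56.82 to 160.4 CPM. Tbx15 was at 0 to 1.587 CPM against 1.759 to 340.1 CPM. Hoxc10 was at 6.349 to 13.5 CPM in the gonadal fat of the 5 treated females and had 0 counts in that of the 5 treated males. Of the oxidative phosphorylation list all 20 genes were again called higher in subscapular fat (median -1.62), of 13 macrophage genes all 13 in gonadal fat (median 2.38), and of 14 complement genes 11 in gonadal fat (median 1.26). Other lists had fewer tested members than in control mice, so that their counts and medians cover different genes. Of 7 tested mesothelial genes 4 were called in gonadal fat (median 1.9), against a median of 3.93 over 11 in control mice. Upk3b, Upk1b, Lrrn4 and Rspo1 were not tested in treated mice. Gonadal and subscapular levels there were 6.438 to 73.85 and 0 to 0.7653 CPM for Upk1b and 4.599 to 111.1 and 0 to 6.348 CPM for Lrrn4. For Rspo1 they were 0.9197 to 49.2 and 0 to 2.296 CPM. Of 7 tested Wnt and BMP genes 1 was called, against 6 of 10 in control mice.

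The treated subscapular libraries were as uneven as the control ones, with muscle sums of 107.9 to 519500 CPM and thermogenic sums of 142.9 to 22470 CPM. The gonadal library of treated male 58 stood apart from the others with an adipocyte sum of 6926 CPM and held the lowest treated value of Upk3b and of Zfhx4. Col4a6 in treated subscapular fat was at 0 in the 1 female, 33, whose mammary sum was low (3.874 CPM), and at 13.77 to 52.75 CPM in the other 4 females, with at most 1.619 CPM in males. A direct test of the depot difference between treated and control mice called 0 of 11598 genes (0%) with edgeR, with 263 at an unadjusted p under 0.05, and 0 by DESeq2 and by limma-voom.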

How the data were processed

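RNA from whole gonadal and subscapular fat was measured by RNA-seq in 12 control and 10 treated mice, with 1 library per depot and mouse. Per the submitters' processing notes, FastQC 0.11.5, Salmon and build mm10 were used, and the authors deposited whole-number counts per gene and library; how estimates became whole numbers is not given in the sources used here. In the counts as deposited, 11 features, either with a mean share above 0.9% or named as ribosomal RNA, among them Lars2 and Gm42418, were left out of library sizes, levels and tests. Fits used R 4.3.3 and edgeR 4.0.16 (TMM, its expression filter with a minimum count of 10, robust quasi-likelihood test) with the mouse as a block, since both depots came from the same animal. The deviations of the 2 libraries of a mouse from their depot means correlated at -0.116 to 0.232 (median 0.0377). P-values were adjusted by Benjamini-Hochberg over all genes tested and called under 0.05. Alternatives were DESeq2 1.42.0, limma-voom (limma 3.58.1), other scalings, filters and weights, each sex, no block, each mouse left out, and 3 reduced sets of pairs added after seeing the data. The depth of 555470 to 2478831 usable counts limits low genes, and the filter removes genes high in few libraries, whose values are given per library. The scripts were tested on simulated data.

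The comparison, the gene lists and the tests were chosen with earlier results of these data known. Genes were named by rule: the 12 largest called differences per direction with the same sign in 12 of 12 pairs and a mean of at least 5 CPM, up to 5 tested members per list with the smallest p, a fixed set, and the sex-term genes. Shox2, Tcf21 and Hoxc10 were in the fixed set, and Slc2a4 and Neb were among the list members with the smallest p. Others, such as Lhx8, Bnc1, Nkain4, Gata5, Hoxa9, Hoxa10, Cfd and further uncalled list members, were chosen after their values were seen. Coordinates are those of GENCODE genes in mm10.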

Additional observations from a re-analysis of the deposited data

Results flagged for a closer look

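The depot difference differed between the sexes for 5 genes, by a test of the difference itself (edgeR's depot-by-sex term, adjusted p = 0.0462 for each; female minus male, log2, 6 mice of each sex). The values were -5.31 for Col6a5, -5.62 for Col4a6, -3.92 for Aldh1a3, -2.75 for Hmcn1 and -2.5 for Egr1. Col6a5 differed through its level in male gonadal fat, and Col4a6, Aldh1a3 and Hmcn1 through their levels in female subscapular fat, where the mammary markers were high in 5 of 6 libraries. For Egr1, females were the higher sex in subscapular fat (medians 20.4 and 6.68 CPM) and the lower in gonadal fat (10.2 and 19.4 CPM). The number of such genes depended on single mice and on the tool, as given in the next part.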

How the results depend on the processing

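The mouse pairs the libraries in the design, so the fit without the block is the alternative: with no pairing it called 1537 genes in gonadal and 1985 in subscapular fat, 1187 with a log2 difference of at least 1 in size, and 4146 in treated mice (3601 with the block), and 2882 of the 3071 control calls were shared. The counts per direction stayed within 1.5 times with RLE in place of TMM, with DESeq2 or limma-voom, with all features or all low genes kept, with library quality weights and in males alone. In females alone they were 288 and 126, without muscle-high pairs 270 and 83, without thermogenic-high pairs 45 and 6, and without either kind 98 and 15. With a size of at least 1 (1142 in 12 pairs) they were 1847 with no low-count filter, 306 in females, 2043 in males, and 308, 51 and 104 in the 3 reduced sets. These sets hold fewer pairs; of the 3071 calls, 3041 of 3046 tested, 2988 of 3047 and 2820 of 3055 kept their direction there. Leaving out 1 mouse gave 1159 (without 61) to 1749 (without 20) genes in gonadal, 978 (without 61) to 1712 (without 20) in subscapular fat, 881 to 1289 with a size of at least 1, and 2809 to 3785 in treated mice. The depot-by-sex count was 5, but 210 with DESeq2, 108 with no low-count filter, 1353 with sample quality weights and 0 to 321 with 1 mouse left out. The depot-by-treatment count was 0 in every alternative run, including each mouse left out. Reversals were listed by name for the named genes only. Of those called in 12 pairs, Tshr (-0.10), Gapdh (0.21), Pgk1 (0.19) and Rarb (0.15) reversed without either kind of pair (3 left). Without thermogenic-high pairs Pank1 (0.0703) did so. The glycolysis median was 0.0582 with either kind left out, and the keratinocyte median (1 tested member) was -0.71 with no filter and -0.48 in females. The cause was not tested. A further 58 named genes, called neither in 12 pairs nor in the alternative, changed sign there. Depth limits genes under about 10 counts per library.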

Other observations

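Single genes of lipid mediator synthesis also differed between the depots, and were chosen after their values were seen. Ptgs1, the cyclooxygenase of basal prostaglandin synthesis, was at 36.1, 64.8 and 91.8 CPM (lowest, median and highest) in gonadal and 7.33, 15.4 and 28.2 CPM in subscapular fat (2.06 ± 0.21, SE, 12 pairs; edgeR adjusted p = 4.93e-05). Alox5, which starts leukotriene synthesis, was at 16.1, 27.8 and 43.4 CPM against 3.05, 6.75 and 14.1 CPM (1.95 ± 0.28, adjusted p = 0.000506). The depots did not overlap for either gene. Of 15 interferon response genes 12 were tested, 4 were called higher in gonadal fat, where 13.3% of all genes were, and 8 were not called. Among the 4 was the antiviral Oasl2 (1.36 ± 0.22, adjusted p = 0.00106). Timp1, an inhibitor of matrix proteases, was untested and had gonadal values of 3.826 to 8.681 CPM in mice 4, 11, 22 and 37 and 43.18 to 149 CPM in the other 8, while no subscapular value exceeded 7.206 CPM. Mice 4, 11 and 22 were also those whose gonadal proliferation sums were lowest, and a link between these values was not tested.

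Of 10 tested creatine and futile cycle genes 3 were called higher in each depot, and of 12 tested retinoid genes 2 were called in gonadal and 1 in subscapular fat, a share near that over all genes. Ckb, brain-type creatine kinase, was higher in the gonadal library of 12 of 12 mice (0.86 ± 0.17, adjusted p = 0.00348), at 40.6, 55.5 and 109 CPM against 13.1, 35.4 and 62.5 CPM, and Gatm (1.23, adjusted p = 0.0258), the first enzyme of creatine synthesis, was called on the same side. Mitochondrial glycerol phosphate dehydrogenase, Gpd2, was higher in subscapular fat (-2.67 ± 0.57, adjusted p = 0.00512). Of the retinoid genes, Aldh1a2 was called higher in gonadal and the receptor Rarb in subscapular fat (-1.04 ± 0.34, adjusted p = 0.0346). The call of Rarb was lost without mouse 18, 45, 55, 61 or 68, with an adjusted p of up to 0.0824. Kit, the stem cell factor receptor, was called higher in subscapular fat (-1.85 ± 0.40, adjusted p = 0.00553) while the mast cell protease Cpa3 was not called (0.06, adjusted p = 0.903). Of 22 cytosolic ribosomal protein genes 1 was called, in subscapular fat, with a list median of 0.0905. Of 15 cholesterol synthesis genes 2 were called, both in subscapular fat, a share near the 13.3% over all genes.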
